A study of Mus musculus with 12 samples.

Results

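Complex I of the respiratory chain, the NADH:ubiquinone oxidoreductase, was examined at the level of its mRNAs in the hippocampus of aged mice given pyrroloquinoline quinone (PQQ), a redox cofactor. The genes were taken by name and not by their values. They were all genes of the expression table whose symbol is Nduf followed by a, b, c, s or v and a digit, and the ND symbols of the mitochondrial genome. Of 27833 genes in the table, 49 met this rule, 42 of them nuclear and 7 mitochondrial.

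Total RNA from the hippocampus of wild-type male C57BL/6J mice aged 20 months was sequenced in 12 libraries. The CON group (3 libraries) received 0.2 mL normal saline, the PQQ-L group (5 libraries) received 5 mg/kg/day and the PQQ-H group (4 libraries) received 10 mg/kg/day PQQ in the same volume, all by oral gavage for 14 days. The study assigned 6 mice to each group, and no young mice were part of the series. Since the labels do not say that each library came from a separate mouse, the p-values measure the spread between these libraries, and this spread may be partly technical. The values are FPKM, the reads on a gene scaled to its length and to the total reads of its library, and a log2 fold change (log2FC) is a difference of mean log2(FPKM + 0.1) between groups.

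Complex I takes electrons from NADH and passes them to ubiquinone, and it pumps protons across the inner mitochondrial membrane while doing so. Its peripheral arm reaches into the matrix and carries the flavin and the iron-sulfur clusters, and its membrane arm holds the proton channels. The conserved core of the peripheral arm is encoded in the nucleus, the core of the membrane arm is encoded in mitochondrial DNA (mtDNA), and the accessory subunits around both are nuclear. Assembly therefore needs the products of both genomes, and neurons, which make most of their ATP by oxidative phosphorylation, express the complex at a high level.

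Of the 42 nuclear genes, 41 had a mean of at least 0.5 FPKM and were tested. Ndufb11b, listed in a single library at 0.0277 FPKM, was the gene left out. The 37 genes with a mean over 25 FPKM held between 1429 and 11861 reads per library. Their highest library exceeded the lowest by 1.23 to 1.81 times, with a median of 1.47 times. The 7 core genes of the peripheral arm had mean levels between 44.6 FPKM (Ndufs1) and 113 FPKM (Ndufv1). By these length-scaled levels, Ndufa4 was the most abundant nuclear gene at 568 FPKM, followed by Ndufb9 at 303 FPKM and Ndufa3 at 257 FPKM. NDUFA4, once counted as part of complex I, is now known as a subunit of cytochrome c oxidase, and NDUFB9 and NDUFA3 are accessory subunits of the membrane arm. By chromosome, 41 of the 42 genes could be placed in the reference annotations, and they lay on 16 chromosomes with at most 5 on any of them (chromosome 17).

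Markers of neighbouring tissue differed between the libraries. The hippocampal neuron markers, 12 genes, were above 0 in every library. Their summed level was 74.8 to 158 FPKM in CON 1, CON 3 and also PQQ-H 1 and PQQ-H 2, and 226 to 564 FPKM in the other 8 libraries. The 12 striatal markers had sums of 3488 FPKM in CON 1, 1437 in CON 3, 2638 in PQQ-H 1 and 1402 in PQQ-H 2, and of 49.95 to 209.8 FPKM in the others, and 1 of them was at 0 in at least 1 library. The 20 choroid plexus markers summed to 1813 to 6021 FPKM in CON and to 79.4 to 204 FPKM in the treated libraries, and 7 of them were at 0 in at least 1 library. Markers of other cell types differed as well. In PQQ-L vs. CON all 8 oligodendrocyte markers (median log2FC -0.60), all 8 endothelial markers (-0.27), all 7 ependymal markers tested (-0.70) and 9 of 10 microglial markers (-0.29) were below 0. Of these 0, 1, 3 and 1 had p below 0.05 in limma, beside 11.6% of all genes lower at that p. The same lists had medians of -0.37, -0.20, -2.16 and 0.02 in PQQ-H vs. CON. Between the doses all 10 microglial (0.29) and all 8 oligodendrocyte markers (0.28) were above 0 and all 7 ependymal ones below 0 (-1.27), while 5 of 8 endothelial markers were below 0 (-0.09). The 18 general neuronal markers had medians of 0.05 and 0.06 against CON, and the 9 astrocyte markers 0.27 and -0.03. The part of these markers in the levels below was not tested, beyond the values without the 4 striatum-rich libraries.

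PQQ-L vs. CON asked whether the lower dose changed these mRNAs. On the FPKM scale the log2FC of all 41 nuclear genes tested was below 0 (35 with TPM, 38 with quantile normalization and 22 with the length trend removed), with a median of -0.25 and a range of -0.47 to -0.04, or a change between -27.6% and -2.82%. At an unadjusted p below 0.05 in limma, 18 of the 41 were lower, beside 11.6% of all 13796 genes tested, and 0 were higher, beside 8.92%. After Benjamini-Hochberg adjustment over all genes by limma 0 of the 41 passed 0.05, the smallest adjusted p being 0.157, beside 0.587% of all genes. In 11 of the 41, every PQQ-L library was below every CON library, which held for 7.66% of all genes, while the reverse held for 0 of the 41 and for 2.96% of all genes. As described below, short genes as a whole had lower levels in the PQQ-L libraries, and the nuclear complex I genes are short.

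**Figure D1:**
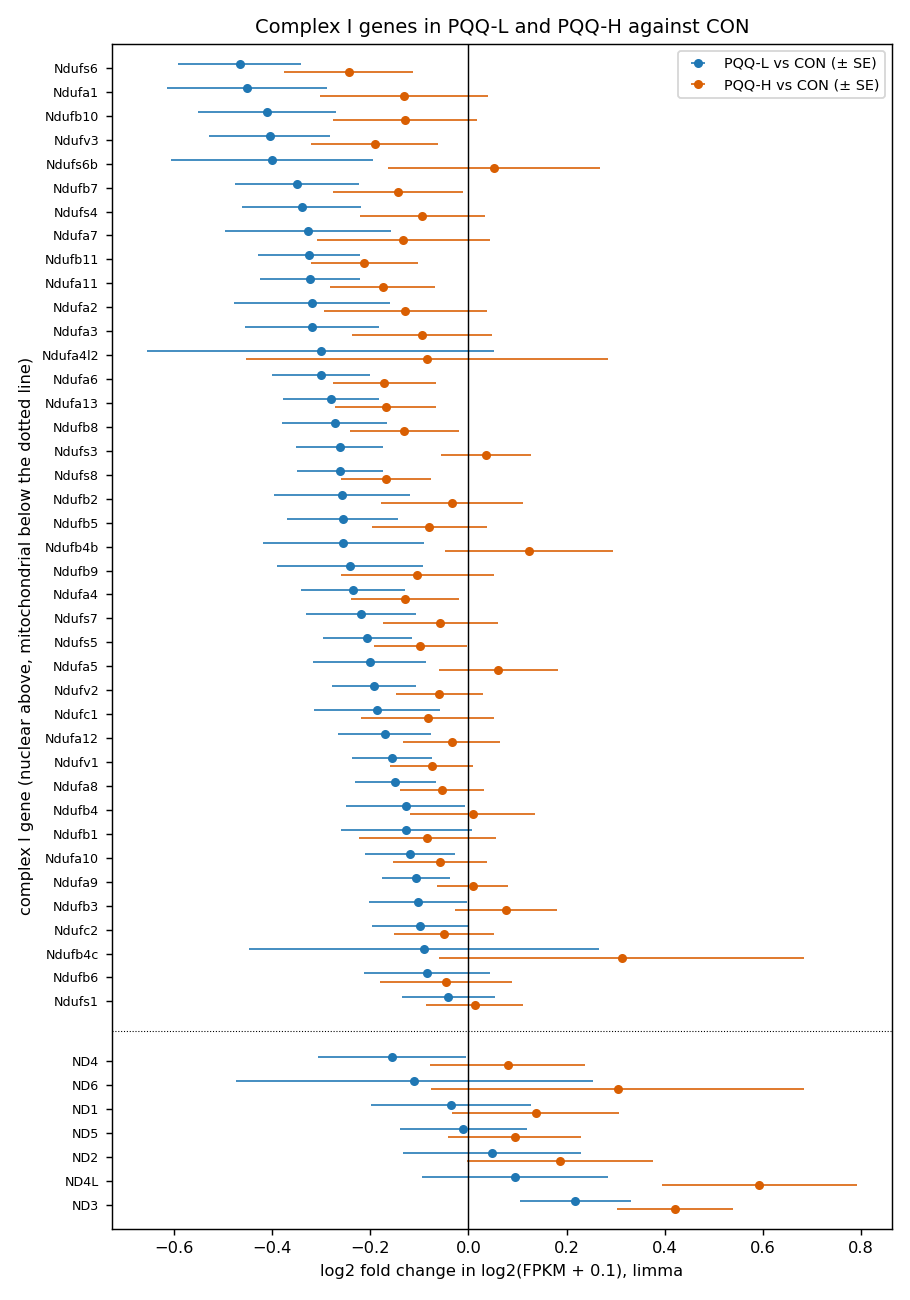
Log2 fold changes (x axis) of 40 of the 41 nuclear genes tested (above the dotted line) and the 7 mitochondrial genes (below it), with the standard error from limma as bars, for PQQ-L vs. CON in blue and PQQ-H vs. CON in orange. The same 3 CON libraries serve both comparisons. On this scale all 40 blue nuclear points lie left of 0 (over the 41 genes the median was -0.25, and 35 were below 0 with TPM, 38 with quantile normalization and 22 with the length trend removed), and all 7 orange mitochondrial points lie right of 0 (median 0.19, with 6 of 7 under quantile normalization or array quality weights and 5 of 7 without CON 2).

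Among the accessory subunits of the peripheral arm, all 9 had a log2FC below 0 (median -0.32) and 4 of them had p below 0.05 in limma. Of all genes 11.6% were lower at that p. Of all tested genes of at most 1000 bases 26.9% were, and 85.7% of these genes had a log2FC below 0. The smallest p of all members in this comparison belonged to Ndufs6, which encodes a zinc-binding subunit needed late in the assembly of that arm. Its level was 145, 111 and 136 FPKM in the CON libraries 1 to 3, 100.3, 99.8, 97.4, 89.9 and 82.7 FPKM in the PQQ-L libraries 1 to 5, and 107, 131, 89.4 and 114 FPKM in the PQQ-H libraries 1 to 4. The PQQ-L libraries were all below the CON libraries, and the PQQ-H libraries overlapped both. In PQQ-L vs. CON its log2FC was -0.47 with an SE of 0.13 (limma, p = 0.00326, adjusted p = 0.157), and a two-sided exact permutation test gave p = 0.0179, the smallest value that the 56 splits of 3 and 5 libraries allow.

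Ndufv3, an accessory subunit of the NADH-binding module, was at 54.8, 44.8 and 53.0 FPKM in CON and at 37.4, 42.1, 40.6, 32.9 and 38.9 FPKM in PQQ-L. The groups did not overlap, and the log2FC was -0.41 with an SE of 0.12 (limma, p = 0.00691, adjusted p = 0.187, exact permutation p = 0.0179). Its PQQ-H libraries were at 52.4, 46.3, 35.8 and 44.6 FPKM. Ndufs4, whose loss causes a Leigh-like encephalopathy in mice, was at 60.2, 42.6 and 58.8 FPKM in CON, 43.2, 47.6, 40.8, 38.8 and 40.3 FPKM in PQQ-L and 54.5, 50.0, 43.3 and 52.3 FPKM in PQQ-H. CON 2 lay among the PQQ-L libraries, and the log2FC was -0.34 with an SE of 0.12 (limma, p = 0.0167, adjusted p = 0.221, exact permutation p = 0.0536). Ndufa5, a subunit next to the quinone-binding part of the arm, averaged 171 ± 28.3 FPKM in CON (SD, n = 3) and 148 ± 10.2 FPKM in PQQ-L (SD, n = 5), and its log2FC of -0.20 had a limma p of 0.109.

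All 20 accessory subunits of the membrane arm had a log2FC below 0 as well (median -0.25). At p below 0.05 in limma 10 were lower, beside 11.6% of all genes and 26.9% of those of at most 1000 bases. Ndufb10, an intermembrane-space subunit held by disulfides, was at 296, 202 and 266 FPKM in CON and at 198, 203, 199, 178 and 169.8 FPKM in PQQ-L. CON 2 stood just below the highest PQQ-L library here, and the log2FC was -0.41 with an SE of 0.14 (limma, p = 0.0135, adjusted p = 0.218, exact permutation p = 0.0357). Ndufb11, an X-linked subunit of the same arm, was at 148, 128 and 162 FPKM in CON and at 107, 123, 114, 119 and 117 FPKM in PQQ-L, with no overlap and a log2FC of -0.32 (limma, p = 0.00939, adjusted p = 0.200, exact permutation p = 0.0179). Ndufa11, a membrane subunit that also touches complex III in supercomplexes, had a log2FC of -0.32 with an SE of 0.10 (limma, p = 0.00871, adjusted p = 0.194, exact permutation p = 0.0357) on mean levels of 33.3 ± 4.77 FPKM in CON (SD, n = 3) and 26.4 ± 1.41 FPKM in PQQ-L (SD, n = 5). Ndufa13, also known as GRIM-19 and required for assembly, had a log2FC of -0.28 with an SE of 0.10 (limma, p = 0.0153, adjusted p = 0.219, exact permutation p = 0.0357). The abundant Ndufb9 and Ndufa3 had log2FC of -0.24 and -0.32 with limma p-values of 0.133 and 0.0396.

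The 7 nuclear core genes gave the smallest values of the structural classes, with a median log2FC of -0.19. All were below 0, and 3 were lower at p below 0.05 in limma, beside 11.6% of all genes. Ndufs3 and Ndufs8, which encode a scaffold subunit and an iron-sulfur subunit of the arm, both had a log2FC of -0.26 (limma, p = 0.0123 and 0.0120, exact permutation p = 0.0179 for both). Ndufs8 was at 95.6, 78.5 and 84.1 FPKM in CON and at 69.0, 78.4, 70.1, 70.0 and 70.4 FPKM in PQQ-L, so that CON 2 and PQQ-L 2 were almost level. Ndufv2, the iron-sulfur partner of the flavin subunit, had a log2FC of -0.19 (limma, p = 0.0444, exact permutation p = 0.0536). Ndufv1, which binds NADH and the flavin, was at -0.16 (limma, p = 0.0809, exact permutation p = 0.0179), and Ndufs7, with the last iron-sulfur cluster, at -0.22 (limma, p = 0.0754, exact permutation p = 0.0714). Ndufs1, the largest core subunit, had the greatest gene length behind the FPKM of the nuclear members tested (3657 bases). It was at 44.7, 47.3 and 42.8 FPKM in CON and at 41.5, 49.5, 39.7, 42.9 and 45 FPKM in PQQ-L, which overlap throughout. The log2FC of Ndufs1 was -0.04 (limma, p = 0.671, exact permutation p = 0.661).

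The same genes were compared between PQQ-H and the same 3 CON libraries. The median log2FC of the 41 nuclear genes was -0.08, with 32 below and 9 above 0, and 0 had p below 0.05 in limma in either direction, beside 7.88% of all genes lower and 1.85% higher. The lowest limma p was 0.0755, for Ndufb11, which was at 119, 139.7, 107 and 139 FPKM in PQQ-H with a log2FC of -0.21. In 0 of the 41 did the PQQ-H and CON libraries stay apart, against 5.72% of all genes below CON and 1.36% above it, and 1.09% of all genes passed the adjusted p. With median-of-ratios scaling, which sets the typical gene equal between libraries, 24 of the 41 were below 0 and 17 above. The median rested on single libraries. Without CON 1 it was -0.0016 with 21 below and 20 above 0, and without CON 2 it was -0.18 with 36 below. It was -0.05 without CON 3 or PQQ-H 1, -0.14 without PQQ-H 2 and -0.02 without PQQ-H 3.

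Set against each other, PQQ-H was above PQQ-L in all 41 nuclear genes on the FPKM scale (35 with TPM, which moved the median of all genes to -0.11, 36 with quantile normalization and 26 with the length trend removed), with a median log2FC of 0.14. At p below 0.05 in limma 5 of the 41 were higher, beside 3.55% of all genes, and 0 were lower, beside 4.6%. Of all tested genes of at most 1000 bases, the class of 25 of the 41, 13.5% were higher at that p and 1.86% lower. The adjusted p passed for 0 of the 41 and for 0% of all genes. In 2 of the 41, Ndufs3 and Ndufs6b, every PQQ-H library was above every PQQ-L library, which held for 1.42% of all genes, while 3.33% of all genes and 0 of the 41 stood apart in the other direction. Ndufs3 was at 98.1, 98.7, 92.7, 86.1 and 87.4 FPKM in PQQ-L and at 122, 115, 104 and 115 FPKM in PQQ-H. Its log2FC was 0.30 with an SE of 0.08 (limma, p = 0.00345, adjusted p = 0.580), and the exact permutation p of 0.00794 was the smallest that 126 splits allow. Against CON, at 126, 99.8 and 108 FPKM, its log2FC in PQQ-H was 0.04 (limma, p = 0.705, exact permutation p = 0.714). The others at p below 0.05 were Ndufa5 (log2FC 0.26, limma p = 0.0308, exact permutation p = 0.0317), Ndufs4 (0.25, limma p = 0.0488, exact permutation p = 0.0317) and the low-abundance genes Ndufb4b and Ndufs6b.

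**Figure D2:**
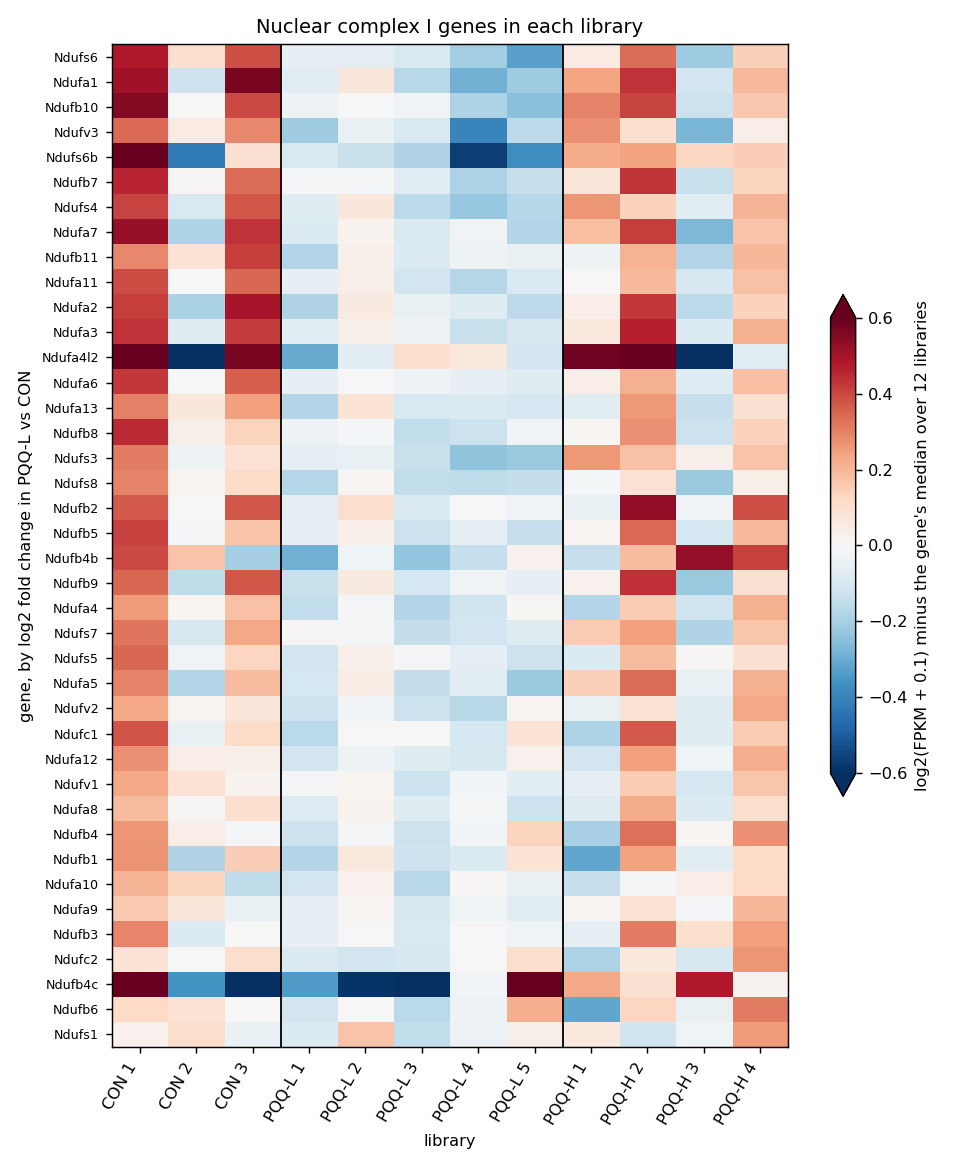
40 of the 41 nuclear genes tested (rows, ordered by log2FC in PQQ-L vs. CON) in each of the 12 libraries (columns, groups parted by lines), coloured by log2(FPKM + 0.1) minus the gene's median over the libraries, with the colour limited to 0.6 on either side. Over the 41 genes, CON 1 was above the gene's median in 41, while PQQ-L 1 and PQQ-L 3 were above it in 1 each.

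The differences between groups ran largely along single libraries, as the map of nuclear genes by library shows. CON 1 was the highest of the 12 libraries in 26 of the 41 genes, and CON 2 in 0. A library stood above the gene's own median in 41, 20 and 33 genes in CON 1 to 3, in 1, 26, 1, 4 and 11 genes in PQQ-L 1 to 5, and in 22, 39, 8 and 40 genes in PQQ-H 1 to 4. The summed level of the nuclear members was 5974, 4684 and 5559.7 FPKM in CON, 4429 to 4801 FPKM in PQQ-L and 4726, 5720.1, 4451 and 5386 FPKM in PQQ-H. The PQQ-L libraries were the narrowest group, with an SD of 153 FPKM against 658 in CON and 584 in PQQ-H. CON 2 lay within the PQQ-L range, and PQQ-H 2 and PQQ-H 4 lay near CON 1 and CON 3. Of the 4 striatum-rich libraries, CON 1, CON 3 and PQQ-H 2 were thus high in nuclear complex I genes, and PQQ-H 4, which was not striatum-rich, was high as well.

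The count of 18 genes in PQQ-L vs. CON rested on these CON libraries. Without CON 1 it was 4 (median log2FC -0.13), without CON 3 it was 9, and without CON 2 it was 27 with 21 past an adjusted p of 0.05 in limma (median log2FC -0.34). The genes of any kind lower at p below 0.05 were 720 of 13730 without CON 1 and 989 of 13760 without CON 3. Without CON 2 they were 2949 of 13777, and 1484 genes lower and 1741 higher then passed the adjusted p. For the higher dose the count of lower nuclear genes was 9 without CON 2, beside 1517 of all 13777 genes. Without PQQ-H 2 it was 3, beside 1342 of 13771. Between the doses the count of 5 became 13 when PQQ-H 3 was left out and 8 when CON 2 was. It became 3 on leaving out PQQ-L 4, 2 on leaving out any of PQQ-L 1, 3 and 5 or PQQ-H 2, and 1 (Ndufs3) on leaving out PQQ-H 4. The genes of any kind called higher moved too, to 1135 of 13823 without PQQ-H 3 and 724 of 13777 without CON 2. They were 353 of 13812 without PQQ-L 4, 288 to 349 without PQQ-L 1, 3 or 5 or PQQ-H 2, and 328 of 13806 without PQQ-H 4.

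The mitochondrial genes spanned a wide range of levels. ND1 averaged 8959 FPKM, ND2 4805, ND4 3556, ND5 2843 and ND6 720.2, while ND3 averaged 138 and ND4L 25.5 FPKM. These proteins form the proton-pumping core of the membrane arm: ND2, ND4 and ND5 are antiporter-like channels, ND1 holds the quinone entry, and ND3, ND4L and ND6 link the arms. ND4L and ND4 overlap by 7 bases and sit on a common mRNA, yet ND4 had a mean of 3556 FPKM and ND4L one of 25.5 FPKM. ND6 is the only one of the 7 on the opposite strand and overlaps ND5 by 14 bases, and whether the reads were counted by strand is not given in the sources used here. Together the 7 genes took between 1.89% (95% Wilson interval 1.889 to 1.899, CON 2) and 2.96% (2.953 to 2.964, PQQ-H 2) of all reads, and the nuclear members took 0.369% to 0.493%. These intervals cover counting error only.

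The low levels of ND3 and ND4L ran along a copy of mtDNA in the nuclear genome. In the GRCm38 annotation (GENCODE M21), chromosome 1 carries 7 annotated pseudogenes of mtDNA between chr1:24611535-24616197, all on the minus strand, that hold part or all of COX1, COX2, ATP6, COX3, ND3, ND4L and ND4. The submitters' notes name another build, mm39, so these positions describe the reference sequence and not the files. The mRNA genes copied over more than 90% of their length were 5 in number, and their mean levels lay between 25.5 and 173 FPKM. ATP8, whose place lies inside the copied span without an annotated copy, averaged 24.0 FPKM. The 7 other mRNA genes of mtDNA averaged 720.2 to 16255 FPKM. Base by base, 344 of the 345 bases of the ND3 copy, Gm28438, equal the gene and the difference is T3C (the gene's base, the position from the first base of the gene, the copy's base). All 294 bases of Gm10222 equal ND4L, and all 876 bases of Gm28439 equal the first part of ND4, of which 36.4% lies beyond the copy. None of the copies is listed in the expression table (0 of 7). Reads from these stretches match both places, how such reads were counted is not given in the sources used here, and its part in the levels was not tested.

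The sequences are printed to show how long these matches run. For ND3 the first 150 bases are given (chrM:9459-9608, plus strand) beside the copy (chr1:24612970-24613119, minus strand), with the differing base in capitals. For ND4L the whole gene (chrM:9877-10173, plus strand) stands beside its copy (chr1:24612407-24612700, minus strand), with the bases beyond the annotated copy in capitals. These capitals fall in the 7-base overlap with ND4, whose first part is held by Gm28439, so they too are copied on chromosome 1. For ND4 bases 800 to 959 (chrM:10966-11125, plus strand) show where the copy ends, and the capitals mark gene sequence that the copy lacks.
ND3: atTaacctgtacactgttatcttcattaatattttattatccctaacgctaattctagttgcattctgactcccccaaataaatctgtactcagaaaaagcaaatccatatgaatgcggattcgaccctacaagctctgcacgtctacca
Gm28438: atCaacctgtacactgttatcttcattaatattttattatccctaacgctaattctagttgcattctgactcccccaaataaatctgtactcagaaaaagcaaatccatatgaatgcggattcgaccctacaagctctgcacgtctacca
ND4L: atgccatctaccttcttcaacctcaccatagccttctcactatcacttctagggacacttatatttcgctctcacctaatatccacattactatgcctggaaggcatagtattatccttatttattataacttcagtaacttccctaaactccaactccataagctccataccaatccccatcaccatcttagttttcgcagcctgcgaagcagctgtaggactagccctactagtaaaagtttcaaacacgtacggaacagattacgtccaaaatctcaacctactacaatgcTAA
Gm10222: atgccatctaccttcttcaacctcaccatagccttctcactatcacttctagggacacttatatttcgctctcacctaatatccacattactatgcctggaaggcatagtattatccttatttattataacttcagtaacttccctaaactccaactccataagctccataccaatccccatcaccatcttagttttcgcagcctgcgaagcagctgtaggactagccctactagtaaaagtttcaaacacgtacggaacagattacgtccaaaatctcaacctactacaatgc
ND4: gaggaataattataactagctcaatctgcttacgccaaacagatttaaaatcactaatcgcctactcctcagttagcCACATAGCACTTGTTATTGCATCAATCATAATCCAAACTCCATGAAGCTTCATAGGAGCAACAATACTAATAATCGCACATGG

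**Figure D3:**
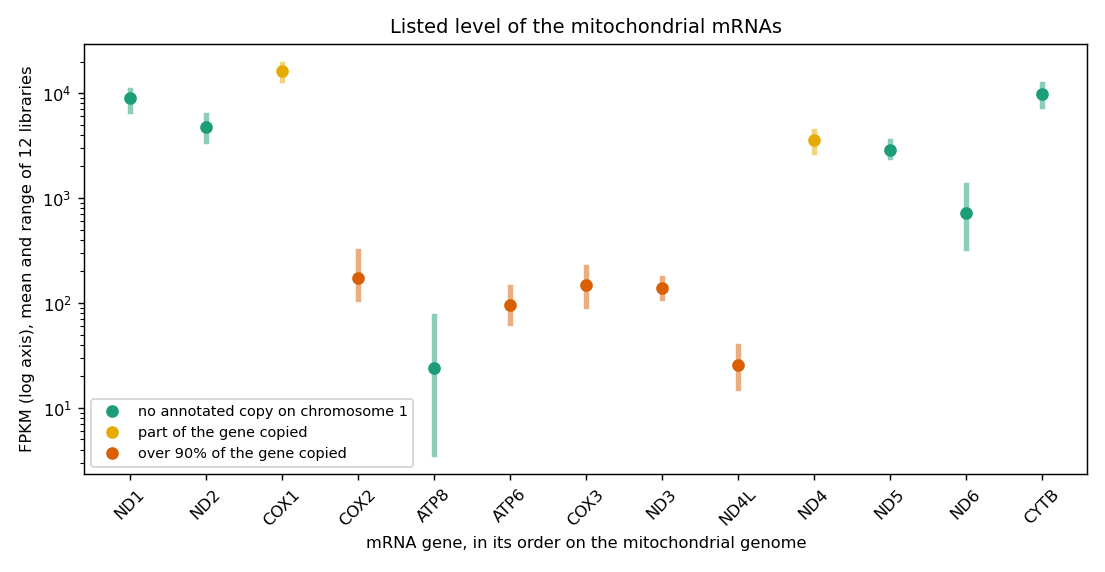
Mean FPKM (points, log axis) of the 13 mRNA genes of mtDNA in their order along the genome, with bars from the lowest to the highest of the 12 libraries, coloured by the share of each gene that is copied on chromosome 1. The 5 genes copied over more than 90% of their length lie between 25.5 and 173 FPKM, and ATP8, which lies inside the copied span, is at 24.0 FPKM.

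At the lower dose the 7 mitochondrial genes had no common direction on the FPKM scale, while 5 were above 0 with median-of-ratios scaling, 6 with TPM and 7 with quantile normalization. The median log2FC was -0.01, with 4 genes below and 3 above 0. At p below 0.05 in limma 0 were called, beside 11.6% of all genes lower and 8.92% higher. ND1 was at 10122, 6703 and 9688 FPKM in CON and at 8865, 7151, 9117, 7973 and 9511 FPKM in PQQ-L, and the groups overlapped throughout (log2FC -0.04, limma p = 0.828, exact permutation p = 0.821). ND4, the lowest by log2FC, was at 4340.2, 2771 and 3927 FPKM in CON and at 3244, 3179, 3552, 3065 and 3212 FPKM in PQQ-L (log2FC -0.16, limma p = 0.325, exact permutation p = 0.339). The level of CON 2 was the lowest of the 12 for ND1 and ND4.

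At the higher dose all 7 mitochondrial genes had a log2FC above 0, with a median of 0.19 and a range of 0.08 to 0.59. With median-of-ratios scaling, TPM and scaling to nuclear reads all 7 were above 0 too, and with quantile normalization or array quality weights 6 were. Without CON 2 the median was 0.03 with 5 of the 7 above 0, and without PQQ-H 2 it was 0.08 with all 7 above 0. At p below 0.05 in limma 2 of the 7 were higher, ND3 and ND4L, beside 1.85% of all genes, and 0 passed the adjusted p. Both are among the genes copied on chromosome 1.

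ND3 was at 119, 114 and 116 FPKM in CON, 123, 111, 159, 136 and 153 FPKM in PQQ-L and 145, 173, 148 and 159.8 FPKM in PQQ-H. The CON libraries were tight, all PQQ-H libraries were above them, and the PQQ-L libraries ran from the level of CON to that of PQQ-H. Its log2FC in PQQ-H vs. CON was 0.42 with an SE of 0.12 (limma, p = 0.00426, adjusted p = 0.176), and the exact permutation p of 0.0286 was the smallest that 35 splits allow. ND3 was read on 1177 to 1987 reads per library.

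ND4L rested on 155 to 371 reads per library. It was at 25.1, 17.6 and 20.9 FPKM in CON, 25.6, 15.4, 24.6, 23.7 and 24.6 FPKM in PQQ-L and 32.9, 38.6, 24.3 and 32.8 FPKM in PQQ-H. In PQQ-H 3 libraries of 4 stood above all others and the other, PQQ-H 3, was within the CON range. The log2FC was 0.59 with an SE of 0.20 against CON (limma, p = 0.0119, adjusted p = 0.308, exact permutation p = 0.0857) and 0.50 with an SE of 0.17 against PQQ-L (limma, p = 0.0151, adjusted p = 0.580). Without CON 2 its p against CON was no longer below 0.05, and neither was its p against PQQ-L without PQQ-H 2. The other 5 genes had unadjusted limma p-values of at least 0.343 against CON.

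ND6 varied most within groups. It was at 831, 567 and 586 FPKM in CON, at 691, 334, 669.7, 516 and 999.7 FPKM in PQQ-L and at 469.5, 1326, 709.8 and 944 FPKM in PQQ-H. No order of the groups stands out of this spread (PQQ-H vs. CON log2FC 0.30 with an SE of 0.38, limma p = 0.44, exact permutation p = 0.486). ND5, the overlapping gene on the other strand, stayed between 2472 and 3494 FPKM in all 12 libraries (PQQ-H vs. CON log2FC 0.09, limma p = 0.5, exact permutation p = 0.543). ND2 was at 5078, 3594 and 4936 FPKM in CON and at 4954, 6132, 4692 and 4762 FPKM in PQQ-H (log2FC 0.19, limma p = 0.343, exact permutation p = 0.514). Against PQQ-L, the PQQ-H libraries had a median log2FC of 0.20 over the 7 genes, all above 0 on the FPKM scale. ND4L alone had p below 0.05 in limma, beside 3.55% of all genes higher. The common direction was lost with quantile normalization, where 3 were above and 3 below 0 with a median of 0. With the length trend removed the median was 0.05 and without the striatum-rich libraries 0.08, each with 6 of the 7 above 0, and without PQQ-L 2 it was 0.13.

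The genomes were then compared within each library, as the mean log2(FPKM + 0.1) of the 7 mitochondrial minus that of the 41 nuclear genes. This difference was 3.44, 3.41 and 3.48 in CON, 3.79, 3.26, 3.90, 3.63 and 3.89 in PQQ-L and 3.76, 3.89, 3.77 and 3.66 in PQQ-H. All 4 PQQ-H libraries and 4 of the 5 PQQ-L libraries were above all CON libraries, and PQQ-L 2 was below them all. The mean difference was 3.44 ± 0.037 in CON (SD, n = 3), 3.69 ± 0.27 in PQQ-L (SD, n = 5) and 3.77 ± 0.097 in PQQ-H (SD, n = 4). With only ND1, ND2, ND4 and ND5, which hold most of the reads, it was 5.69 ± 0.11, 5.90 ± 0.19 and 5.89 ± 0.15, and the groups overlapped. As a summed level, the mitochondrial genes stood at 3.80 ± 0.28 times the nuclear ones in CON, 4.43 ± 0.62 times in PQQ-L and 4.47 ± 0.41 times in PQQ-H. In PQQ-L this came with a lower nuclear mean (6.19 ± 0.047 against 6.43 ± 0.20 in CON) at a like mitochondrial mean (9.88 ± 0.23 against 9.87 ± 0.22). In PQQ-H it came with a higher mitochondrial mean (10.13 ± 0.19) and a nuclear mean of 6.36 ± 0.14. These sums and means were not tested, and in bulk tissue fewer cells of a type and less RNA per cell cannot be told apart.

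**Figure D4:**
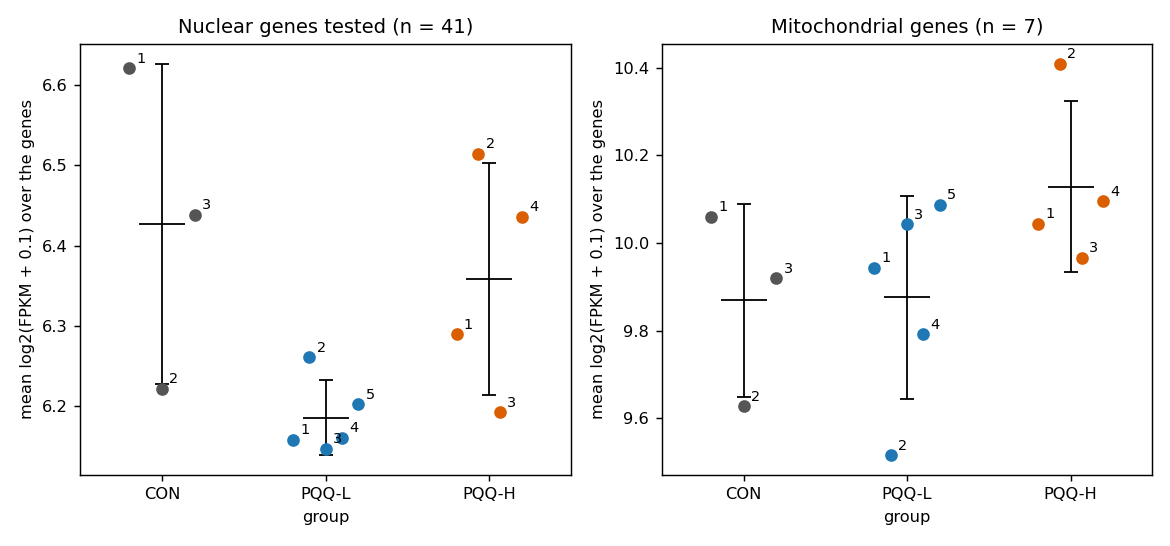
Mean log2(FPKM + 0.1) over the 41 nuclear genes tested (left) and the 7 mitochondrial genes (right) in each library, numbered by replicate, with the group mean and SD as the horizontal line and bars. The PQQ-L libraries lie close together on the left (SD 0.047) and as widely as the other groups on the right (SD 0.23).

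Gene length moved with the nuclear result. The length behind the FPKM was 339 to 3657 bases for the 41 nuclear genes, with a median of 750 against 3596 for all genes tested, and 25 of the 41 were at most 1000 bases long beside 6.62% of all genes. In PQQ-L vs. CON all 913 tested genes of at most 1000 bases had a median log2FC of -0.29, with 85.7% of them below 0 and 26.9% lower at p below 0.05. The 25 nuclear members in that length class had a median of -0.25, and 10 of them were lower at p below 0.05. In the longer classes the medians of the members lay below those of all genes. The 7 members of 1000 to 1500 bases had a median of -0.26 against -0.19. At p below 0.05 in limma 3 of them were lower, beside 22.4% of all genes of that class. The 7 of 1500 to 2500 bases had -0.19 against -0.12, with 4 lower beside 18.3% of the class. The 2 of 2500 to 4000 bases had -0.18 against -0.05, with 1 lower beside 11.6% of the class. Across the 41 members themselves, which share their libraries, Spearman's rho between length and log2FC was 0.14. The medians of all tested genes changed with length from -0.30 at up to 600 bases to 0.10 over 4000 bases. In PQQ-H vs. PQQ-L the short class had a median of 0.19 and so did its complex I members. For the higher dose against CON both were -0.08.

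With the length trend taken out of each library, a step added after the data were seen, the median log2FC of the 41 nuclear genes in PQQ-L vs. CON was -0.003, with 22 below and 19 above 0. At p below 0.05 in limma 2 of the 41 were lower, Ndufv3 and Ndufa11, both of over 1500 bases, beside 1114 of all 13795 genes in that fit. The median of the 7 mitochondrial genes in that fit was 0.23, all 7 above 0. ND3 and ND4L were higher at p below 0.05 in limma, beside 1234 of the 13795 genes. For the higher dose the nuclear median was 0.01 and the mitochondrial median 0.28, again with all 7 above 0. Between the doses the nuclear median was 0.01, with 26 above and 15 below 0, beside 0.14 before. The mitochondrial minus the nuclear median was then 0.24 for the lower and 0.27 for the higher dose, and it had been 0.24 and 0.27 before. Both sets are short, with median lengths of 957 and 750 bases, so this step moved both by a like amount. It could hardly change their difference and cannot tell whether that difference depends on length.

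**Figure D5:**
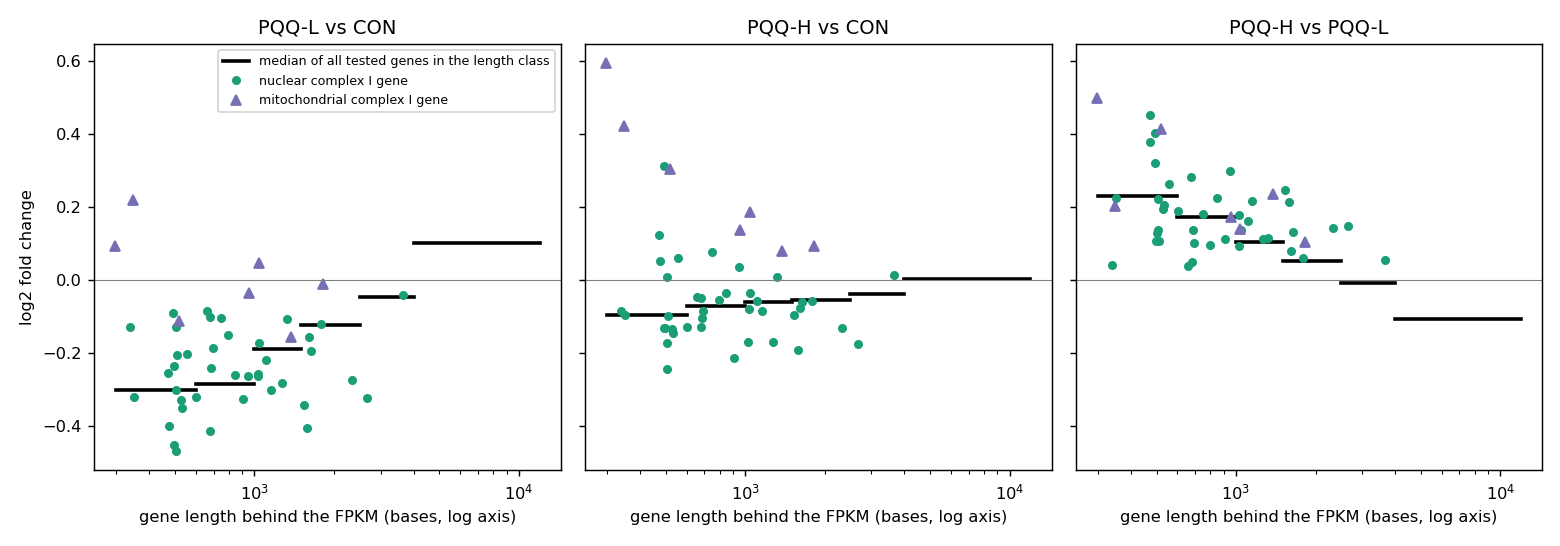
Log2 fold change against gene length (log axis) for 40 of the 41 nuclear (circles) and the 7 mitochondrial (triangles) complex I genes in the 3 comparisons. Black lines are the medians of all tested genes in 6 length classes, the last of which is open and drawn to the edge of the plot. For the lower dose against CON the lines climb from -0.30 to 0.10 and the medians of the nuclear genes lie near the lines up to 1000 bases and below them in the 3 longer classes that hold members (-0.26, -0.19 and -0.18).

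Without the 4 striatum-rich libraries, which left CON 2 as the only control and its spread taken from the other groups, the nuclear median in PQQ-L vs. CON was -0.07, with 29 below and 12 above 0. At p below 0.05 in limma 0 nuclear genes were lower and 1 higher, Ndufa4l2 (log2FC 0.61), a hypoxia-induced relative of Ndufa4. For the higher dose the nuclear median was then 0.06 with 31 above 0. The mitochondrial medians were 0.25 and 0.40 for the lower and the higher dose, all 7 genes above 0 in both and 0 at p below 0.05. In PQQ-H vs. PQQ-L, which needs no control, 39 of the 41 nuclear genes were above 0 without these libraries (median 0.11). Only PQQ-H 3 and PQQ-H 4 were then left of the higher dose. They stood above the gene's median over the 12 libraries in 8 and 40 of the 41 genes. Choroid plexus content and treatment cannot be told apart in the comparisons with CON, since all CON libraries were high in these markers and all treated libraries low.

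Members that are no subunit of complex I in the structural lists were Ndufa4 and the low relatives of other genes. Ndufa4 was at 672, 566 and 636 FPKM in CON and at 508, 559, 498, 518 and 566 FPKM in PQQ-L, the highest of which just missed the lowest CON library (log2FC -0.24, limma p = 0.0467, exact permutation p = 0.0179). Ndufs6b averaged 4.01 FPKM on 41 to 111 reads and was at 3.69, 3.59, 3.48, 2.64 and 3.03 FPKM in PQQ-L and 4.62, 4.69, 4.31 and 4.38 FPKM in PQQ-H (log2FC 0.45, limma p = 0.0353, exact permutation p = 0.00794). Its transcript equals that of Ndufs6 at 95.8% of 287 aligned bases. Ndufb4c averaged 1.21 FPKM on 11 to 36 reads, and all 390 bases of its transcript are found in that of Ndufb4, so reads could pass between them and both values are uncertain. Ndufb4b, whose transcript was not compared here, averaged 7.19 FPKM, with a log2FC of 0.38 in PQQ-H vs. PQQ-L (limma, p = 0.0278, exact permutation p = 0.0317). Ndufa4l2 averaged 2.33 FPKM, and its CON libraries at 3.76, 1.26 and 3.11 FPKM were high where the striatal markers were.

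Genes that build the complex were read beside its subunits. Of 18 assembly factors 17 were tested. Their median log2FC in PQQ-L vs. CON was -0.12, and 4 were lower at p below 0.05 in limma and 0 higher, beside 11.6% and 8.92% of all genes, with Ndufaf2 (-0.24, limma adjusted p = 0.24), an assembly chaperone of the peripheral arm, and Dmac2 (-0.23, limma adjusted p = 0.24), of the distal membrane arm, at the smallest p. Against CON, in PQQ-H, Dmac1, which also serves the distal membrane arm, was higher (0.23, limma adjusted p = 0.429) and Dmac2 lower (-0.26, limma adjusted p = 0.455), with 1 call in each direction, beside 1.85% of all genes higher and 7.88% lower. In PQQ-H vs. PQQ-L Dmac1 (0.28, limma adjusted p = 0.58) and Ndufaf3 (0.22, limma adjusted p = 0.58) were the 2 higher ones and 0 were lower, beside 3.55% and 4.6% of all genes. Ndufab1, the acyl carrier protein that belongs to the complex but is not matched by the rule, had log2FC of -0.08 and -0.04 against CON. These lists were made with results of these data known and are descriptions.

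Of 32 genes for the copying and expression of mtDNA 28 were tested. In PQQ-L vs. CON 5 were lower and 1 higher at p below 0.05 in limma, beside 11.6% and 8.92% of all genes, with Ssbp1, which binds single-stranded mtDNA (-0.27, limma adjusted p = 0.183), and Slirp, which keeps mitochondrial mRNAs stable (-0.33, limma adjusted p = 0.223), at the smallest p. Against CON, in PQQ-H, Trmt10c, a part of the mitochondrial RNase P, was higher (0.31, limma adjusted p = 0.398) and Grsf1, of the mitochondrial RNA granules, lower (-0.19, limma adjusted p = 0.422), 1 in each direction beside 1.85% and 7.88% of all genes. In PQQ-H vs. PQQ-L 4 were higher and 2 lower, beside 3.55% and 4.6% of all genes, led by Ssbp1 (0.23, limma adjusted p = 0.58) and Mterf2 (0.32, limma adjusted p = 0.58). The median of the 28 was -0.07, -0.06 and 0.005 in the 3 comparisons, with 17, 19 and 13 of them below 0.

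Promoters were searched for motifs because the nuclear genes shared a direction in PQQ-L. The RefSeq table for GRCm38.p6 held a promoter (250 bases before to 50 after the start) for 34 of the 42 nuclear genes. On either strand, the NRF1 motif (GCGCA, any base, GCGC) was found in 7 of the 34 (20.6%), beside 9.92% of the promoters of genes tested and 4.78% of all promoters. The YY1 motif AANATGGCG was found in 6 (17.6%, beside 5.05% and 2.51%), the ETS motif CCGGAAG in 4 (11.8%, beside 17.1% and 9.12%) and TATAAA in 4 (11.8%, beside 6.86% and 14.2%). NRF1 is the factor known for driving nuclear respiratory genes. These letters are a description and no binding was measured. The bases -150 to -1 are shown for Ndufs6, the lowest by log2FC in PQQ-L (chr13:73328483-73328632, minus strand), and Ndufs3, the gene with the smallest p between the doses (chr2:90904722-90904871, minus strand). The capitals mark an NRF1 motif starting at -16 in Ndufs6 and an ETS motif starting at -27 in Ndufs3.
Ndufs6: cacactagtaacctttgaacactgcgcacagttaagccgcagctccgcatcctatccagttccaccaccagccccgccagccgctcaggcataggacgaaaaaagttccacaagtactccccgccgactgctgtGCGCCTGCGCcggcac
Ndufs3: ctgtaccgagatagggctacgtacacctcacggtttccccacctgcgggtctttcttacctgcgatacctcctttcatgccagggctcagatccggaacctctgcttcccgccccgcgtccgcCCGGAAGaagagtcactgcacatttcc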

How the data were processed

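Hippocampal RNA-seq libraries (3 CON, 5 PQQ-L, 4 PQQ-H) were grouped by the labels. The authors filtered reads with fastp, mapped them with HISAT2, counted them with HTSeq-count and deposited FPKM for 27833 genes. The submitters' notes name the build mm39. The strand setting, the RNA selection and the treatment of reads with several matches are not given in the sources used here. Whole reads came back from the FPKM for 99.988% of the 25563 genes above 0 in at least 2 libraries (tolerance 0.02 reads). Library totals were 29656457 to 38181580 (median 35170275). Libraries of a group differed by far more than sampling noise.

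Genes averaging 0.5 FPKM or more (13796) were tested on log2(FPKM + 0.1) with limma 3.58.1 (R 4.3.3, trend) in one fit of all 12 libraries, with Benjamini-Hochberg adjustment over all of them. Single genes were also compared by two-sided exact permutation tests, with Python 3.11.15 and scipy 1.17.1. The statistics were tested on simulated data. The genes named are the 7 ND genes, the nuclear core genes, the 3 accessory genes with the smallest p in each comparison, the 3 highest and 3 lowest nuclear genes, the members outside the structural lists, and the 2 genes with the smallest p from each list of assembly factors, other mtDNA mRNAs and mtDNA expression factors. The values of 1 nuclear member are not reported here, and it counts in the totals. The members and lists were chosen with earlier results of these data known.

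Alternatives changed the pseudocount (1 or 0.01), the filter (any gene above 0, or 1 FPKM on average), the scaling (median-of-ratios, reads on nuclear genes, TPM, quantile normalization) and the fit (only the groups compared, no trend, robust, array quality weights, a covariate for the letter that starts each library name, a replicate block, voom on the reads), and left out each library. Removing the length trend (30 length classes per library) and the striatum-rich libraries was added after the data were seen.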

Additional observations from a re-analysis of the deposited data

Results flagged for a closer look

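Among 69 tests of a single library standing apart in its group, 3 did, and chance gives about 1 in 20. ND4L was at 15.4 FPKM in PQQ-L 2, while the other PQQ-L libraries were at 23.7 to 25.6 FPKM. By the mean log2 difference over all 7 genes, which includes ND4L, PQQ-L 2 was also the library in which the mitochondrial genes stood lowest against the nuclear ones. By the ratio of summed levels CON 2 was lowest (3.481 against 3.485 in PQQ-L 2). The same held for the difference with only ND1, ND2, ND4 and ND5 (5.596 against 5.607). Ndufs8 was at 78.4 FPKM in PQQ-L 2, while the other PQQ-L libraries were at 69.0 to 70.4 FPKM. Ndufb11b was at 0.0277 FPKM in PQQ-H 3 and at 0 in the other PQQ-H libraries. A gene read in a single library of its group is always flagged, so this flag cannot be set beside the 1 in 20.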

How the results depend on the processing

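The nuclear genes at p below 0.05 in PQQ-L vs. CON (18 lower) became 11 with TPM, 9 with array quality weights, 2 without the length trend and 0 without the striatum-rich libraries, where 1 was higher. The nuclear median then became -0.0030 without the length trend and -0.070 without those libraries, and the mitochondrial median 0.23 and 0.25. The mitochondrial genes at p below 0.05 became 1 with median-of-ratios scaling, 1 with TPM, 2 with quantile normalization and 2 without the length trend. Of all genes, 1071 of 15845 were lower in PQQ-L vs. CON with TPM, 805 of 13796 with array quality weights and 1114 of 13795 without the length trend. Higher were 1771 of 13793 with median-of-ratios scaling, 2056 of 15845 with TPM, 1947 of 13794 with quantile normalization and 1234 of 13795 without the length trend. In PQQ-H vs. CON 1 nuclear gene was lower with quantile normalization, 2 were higher without the length trend and 2 without the striatum-rich libraries (median 0.063), and the 2 mitochondrial calls became 0 with array quality weights and 0 without those libraries. In PQQ-H vs. PQQ-L the 5 higher nuclear genes became 11 with median-of-ratios scaling, 3 with TPM, 8 with only these groups, 18 with array quality weights, 10 with the covariate for the first letter, 2 with voom and 0 without the length trend. Of all genes, 739 of 13793, 260 of 15845, 682 of 13637, 882 of 13796, 575 of 13796, 513 of 16796 and 439 of 13795 were higher, in the same order. The 1 mitochondrial call became 2 with median-of-ratios scaling, 0 without the length trend and 0 without the striatum-rich libraries. In PQQ-H vs. CON 760 of all 13794 genes were lower with quantile normalization and 592 of 13795 higher without the length trend. The cause of these shifts was not tested.

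In the fit with a replicate block, 5 nuclear genes were lower in PQQ-L vs. CON, beside 747 of all 13796 genes. In PQQ-H vs. PQQ-L 1 was higher in that fit, beside 209 of all genes. The replicate numbers did not pair the libraries, since correlations of same-numbered deviations ran from -0.62 to 0.72. Leaving out each library in turn gave 4 to 27 lower nuclear genes in PQQ-L vs. CON, 0 to 21 at an adjusted p below 0.05 and 0 to 1 mitochondrial genes. Of all genes, 720 to 2949 were then lower at p below 0.05 in limma. Without CON 2, 1484 of all genes were lower and 1741 higher past the adjusted p. In PQQ-H vs. CON leaving out each library gave 0 to 9 lower and 0 to 1 higher nuclear genes and 1 to 2 mitochondrial genes, and in PQQ-H vs. PQQ-L 1 to 13 higher nuclear and 0 to 2 mitochondrial genes. Of all genes, 751 to 1517 were lower and 106 to 1247 higher in the former, and 288 to 1135 higher in the latter. ND5 in PQQ-L vs. CON became 0.33 with quantile normalization. Without the length trend Ndufs3 became 0.00615 and Ndufa4 0.074, and without the striatum-rich libraries Ndufa3 became 0.016 and Ndufa4l2 0.61. Of the 87 log2FC of named genes, 21 had another sign without the length trend, 23 without the striatum-rich libraries, 14 with quantile normalization, 7 with TPM and 4 with median-of-ratios scaling. With 3 to 5 libraries a group and over 1000 reads on most members, the spread between libraries and not depth limits these values, apart from ND4L and the low relatives.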

Other observations

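The 6 mRNAs of mtDNA outside complex I were read in the same way, and 0 of them had a limma p below 0.05 in any of the 3 comparisons. ATP8, a small subunit of ATP synthase, ran from 3.59 to 74.6 FPKM over the 12 libraries, and its log2FC in PQQ-H vs. CON was 1.28 with an SE of 0.85 (limma adjusted p = 0.701). COX2, of cytochrome c oxidase, and ATP6, of ATP synthase, averaged 173 and 94.9 FPKM, and their log2FC in PQQ-H vs. PQQ-L were 0.50 and 0.43 (limma adjusted p = 0.580 for both). CYTB, of the cytochrome bc1 complex, averaged 9926 FPKM with a log2FC of -0.14 in PQQ-L vs. CON (limma adjusted p = 0.566).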
